A study of Mus musculus with 12 samples.

Results

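The genes described here are 10 genes of the photoreceptor ribbon synapse, chosen by name from the 37991 genes of the deposited tables: Bsn, Pclo, Ctbp2, Rims2, Cacna2d4, Cabp4, Slc17a7, Cplx3, Cplx4 and Unc119. All 10 were found by their symbols, each under a single gene identifier, and all 10 passed the filters on low values in every comparison. Retinas of male mice aged 8 weeks were sequenced by RNA-seq in 12 libraries, 3 from each of 4 groups, and each library pooled between 6 and 8 retinas. The parental groups were the inbred strains C57BL/6J and Cast/EiJ, a wild-derived strain, and are called F0 here. The hybrid groups were F1 B6xCast, with a C57BL/6J father and a Cast/EiJ mother, and F1 CastxB6, the reciprocal cross. No group carried an engineered allele or received a treatment. The whole retina was used, so a value is a sum over all its cells, and fewer cells of a type cannot be told apart from less RNA per cell.

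Rods and cones release glutamate in the dark without pause, and they do so at an active zone built around an electron-dense plate, the synaptic ribbon, that tethers vesicles above a cluster of L-type calcium channels. RIBEYE is the main protein of the ribbon, bassoon anchors it to the membrane, and calcium entering through the channel drives fusion of the tethered vesicles. Several of the genes also serve other neurons of the retina: bipolar cells have ribbons too, and the vesicular transporter and the scaffold proteins act at many synapses. In the F1 hybrids both alleles share the same cells, so that comparing them measures the difference that travels with the allele, and comparing the F0 strains measures the whole difference.

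Ctbp2 shows why the gene-level values need care. The gene makes the transcriptional co-repressor CtBP2 from an upstream start and RIBEYE from an internal start, and the deposited value is their sum. Of 18 protein-coding transcripts in the GENCODE annotation of NCBI37, the longest codes for 988 residues and starts at base 140206931 of chromosome 7, while the next longest codes for 445 residues and starts upstream at base 140315050. The promoter windows of RefSeq (build GRCm38.p6, 250 bases before to 50 after the start, gene strand) are shown for Ctbp2 and for the first and second start of Unc119. For each gene, 1 of the windows shown holds the letters TAATCC, preferred by the photoreceptor transcription factor CRX, or their reverse complement GGATTA, and these letters are in capitals.

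Ctbp2, chr7:133081811-133082110, minus strand: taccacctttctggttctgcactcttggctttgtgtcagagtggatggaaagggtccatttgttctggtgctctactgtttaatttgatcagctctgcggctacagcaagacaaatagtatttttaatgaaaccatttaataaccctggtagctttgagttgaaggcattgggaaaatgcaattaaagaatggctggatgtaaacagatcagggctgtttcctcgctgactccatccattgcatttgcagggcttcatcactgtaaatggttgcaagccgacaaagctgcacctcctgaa

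Ctbp2, internal start, chr7:133015198-133015497, minus strand: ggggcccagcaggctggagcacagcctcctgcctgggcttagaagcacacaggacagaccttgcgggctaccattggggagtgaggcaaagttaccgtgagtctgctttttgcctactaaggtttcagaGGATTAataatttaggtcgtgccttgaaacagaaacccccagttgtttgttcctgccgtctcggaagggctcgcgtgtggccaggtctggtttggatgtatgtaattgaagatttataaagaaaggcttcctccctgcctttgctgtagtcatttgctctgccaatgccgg

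Unc119, chr11:78343245-78343544, plus strand: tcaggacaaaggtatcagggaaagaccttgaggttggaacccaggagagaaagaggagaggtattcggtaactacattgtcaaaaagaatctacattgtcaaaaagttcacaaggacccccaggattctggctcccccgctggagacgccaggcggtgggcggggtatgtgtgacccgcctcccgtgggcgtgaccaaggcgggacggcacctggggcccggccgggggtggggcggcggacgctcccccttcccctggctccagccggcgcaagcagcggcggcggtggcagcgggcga

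Unc119, second start, chr11:78345334-78345633, plus strand: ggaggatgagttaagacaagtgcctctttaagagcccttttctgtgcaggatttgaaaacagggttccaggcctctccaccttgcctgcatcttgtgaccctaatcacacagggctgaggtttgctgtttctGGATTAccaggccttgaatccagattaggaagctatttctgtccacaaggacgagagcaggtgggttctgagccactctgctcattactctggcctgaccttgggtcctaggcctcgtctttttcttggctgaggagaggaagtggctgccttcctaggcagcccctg

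The internal Ctbp2 window matched NCBI37 exactly once, at chr7:140206881-140207180, and held the start of the 988-residue transcript. It also held base 140207173, where a coding transcript of 420 residues starts, and the capital letters lie between these starts. The other Ctbp2 window matched chr7:140273494-140273793, where none of the 18 coding transcripts starts, so the upstream start at base 140315050 is not among the windows shown. The first Unc119 window likewise matched chr11:78156747-78157046 and held the start of the longest Unc119 transcript, which codes for 262 residues. The letters lay 121 bases before the internal Ctbp2 start and 118 bases before the second Unc119 start. Of the 9 promoter windows listed for the genes, 2 held them, against 7.06% of all 32851 windows in the RefSeq table. The windows belonged to 6 of the 10 genes (Bsn, Pclo, Ctbp2, Slc17a7, Cplx3 and Unc119), and Rims2, Cacna2d4, Cabp4 and Cplx4 had no entry. A match is a description of the letters and not of binding.

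The tables give coordinates on NCBI37. Bsn (ENSMUSG00000032589) spans 94.4 kb of chromosome 9, from 107998354 to 108092715 on the minus strand. Pclo (ENSMUSG00000061601) spans 348.5 kb of chromosome 5, from 14514918 to 14863457 on the plus strand. Ctbp2 (ENSMUSG00000030970) lies on chromosome 7 from 140179246 to 140316037, minus strand. The longest annotated proteins of the scaffold genes have 3942 residues for Bsn and 5068 for Pclo. Rims2 (ENSMUSG00000037386) spans 483.6 kb of chromosome 15, from 39029878 to 39513486, plus strand. Cacna2d4 (ENSMUSG00000041460) lies on chromosome 6 from 119186544 to 119302425, plus strand, with 38 exons in its longest coding transcript. Cabp4 (ENSMUSG00000024842) is the shortest gene of the set, 4.2 kb on chromosome 19 from 4135425 to 4139609, minus strand, with 6 exons. Slc17a7 (ENSMUSG00000070570) lies on chromosome 7 from 52419291 to 52431508, plus strand, and Cplx3 (ENSMUSG00000039714) on chromosome 9 from 57447826 to 57454088, minus strand. The set is completed by Unc119 (ENSMUSG00000002058), on chromosome 11 from 78156984 to 78162666 on the plus strand, and Cplx4 (ENSMUSG00000024519). The span of Cacna2d4 contains or overlaps that of Lrtm2 on the opposite strand, which averaged 620.6 count equivalents, and the study's RNA-seq did not record strand, so reads that both genes could give cannot be told apart. The other overlapping genes of the table, next to Bsn, Ctbp2 and Rims2, averaged at most 19.3 count equivalents.

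Unique hits, the read pairs assigned to a single gene or allele, numbered from 8158534 to 12363291 per library. The F0 Cast/EiJ libraries, at 8158534 to 10078766, were all shallower than the F0 C57BL/6J libraries, at 10363519 to 11888819. In the F1 libraries between 99.4% and 99.5% of unique hits on the X chromosome came from the mother's strain, as the labels of these males require. The retinal identity of the libraries was clear from the rod genes Gnat1, the rod transducin subunit, at 4324 to 5246 FPKM, and Nrl, a transcription factor of rods, at 485.9 to 666.2 FPKM. Among genes of other tissues, Best1 of the pigment epithelium had 0.0120 to 0.124 FPKM and Rpe65 at most 0.761 FPKM. The lens gene Cryaa ranged from 0.190 to 9.11 FPKM, and the blood gene Hba-a1 from 9.90 to 43.3 FPKM, beside 7.84 to 11.8 FPKM for the ganglion cell gene Rbpms.

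In level per transcript length the 10 genes spanned 74.3-fold. FPKM (fragments per kilobase of transcript, scaled to library size) was computed by exponentiating the log expression values, and each F1 library was represented by the mean of its alleles. Unc119, a chaperone that carries lipid-tailed proteins such as rod transducin, was highest at 906.0 ± 47.7 FPKM (SD, n = 12), and 0.12% of the genes tested in the F0 comparison had a higher mean. Slc17a7, the vesicular glutamate transporter VGLUT1 that fills photoreceptor vesicles, followed at 446.9 ± 38.7 FPKM (SD, n = 12). Cplx4 had 209.6 ± 9.09 FPKM (SD, n = 12) and the lowest coefficient of variation of the set, 4.34%. These 3 genes were separated from each other and from all the rest in every library.

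Cabp4, a calcium sensor bound to the photoreceptor calcium channel, came next at 121.8 ± 21.2 FPKM (SD, n = 12), with the highest coefficient of variation of the set, 17.4%. Ctbp2 had 85.7 ± 6.51 FPKM, Cplx3 73.8 ± 4.69 FPKM and Cacna2d4 61.8 ± 5.18 FPKM (SD, n = 12 each), and the ranges of neighbours in the order from Cabp4 to Cacna2d4 overlapped. Rims2 stood apart from both of its neighbours at 35.7 ± 2.84 FPKM (SD, n = 12). The giant scaffold genes were last, Pclo at 15.2 ± 1.10 FPKM and Bsn at 12.2 ± 0.912 FPKM (SD, n = 12 each), and their ranges overlapped.

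**Figure D1:**
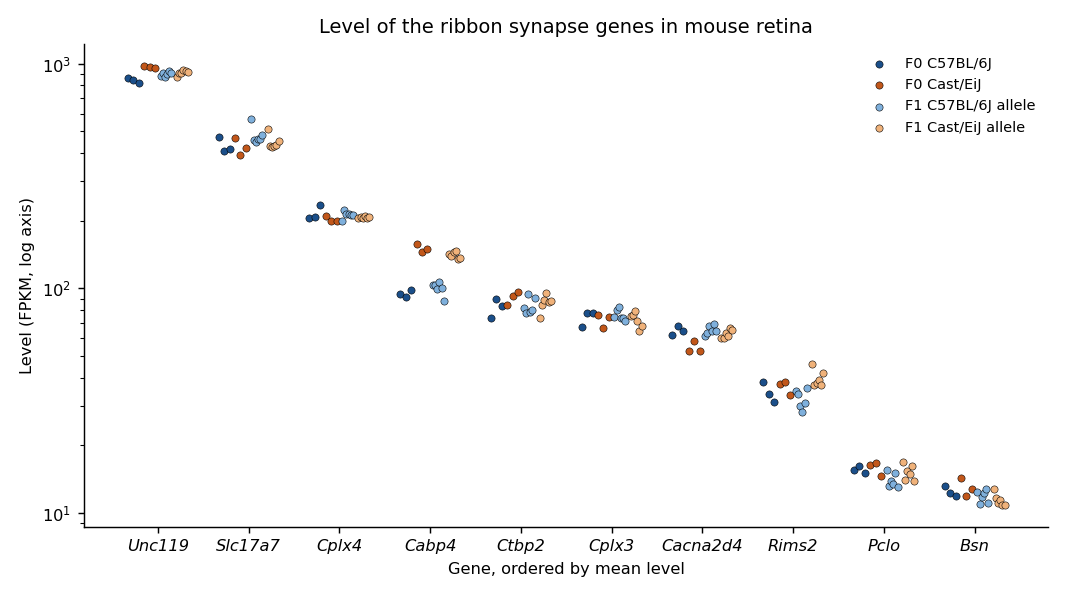
Level of each gene in FPKM on a log axis, with 3 points for each F0 strain and 6 points for each allele in the F1 libraries. Unc119 lies highest and Bsn lowest, and Cabp4 is the gene whose F0 strains and F1 alleles form separate clouds.

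The first comparison asked how the strains differ, using 14452 autosomal genes that reached 10 count equivalents in 3 or more of the 6 F0 libraries. Count equivalents are MMSEQ's read-pair estimates per gene, scaled by the authors to a common library size, and differences are on the log2(count equivalents + 1) scale. Of the 10 genes, Cabp4 and Unc119 were higher and Cacna2d4 was lower in Cast/EiJ at an adjusted p under 0.05. These 3 of 10 stand beside 33.8% of all genes called in this comparison, 17.2% higher and 16.6% lower, so the share of called genes in the set was close to the background. The median absolute difference of the 10 genes was 0.11, below the 0.26 of all genes tested. Those were measured less precisely, with a median SE of 0.13 against 0.06 to 0.09 for the 10 genes, so the medians are not fully comparable.

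The second comparison asked how the alleles differ within the F1 libraries, using 13414 autosomal genes that carry strain variants and average 10 or more allele-specific unique hits. Cabp4, Rims2 and Pclo were higher from the Cast/EiJ allele, and none of the 10 genes was called lower. These 3 of 10 stand beside 47.0% of all genes called, 23.5% higher and 23.5% lower. The median absolute allelic difference was 0.06 in the set and 0.20 over all genes. Here too precision differed, with SEs of 0.03 to 0.06 in the set and a median SE of 0.08 over all genes. Cabp4 alone was called in both comparisons.

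**Figure D2:**
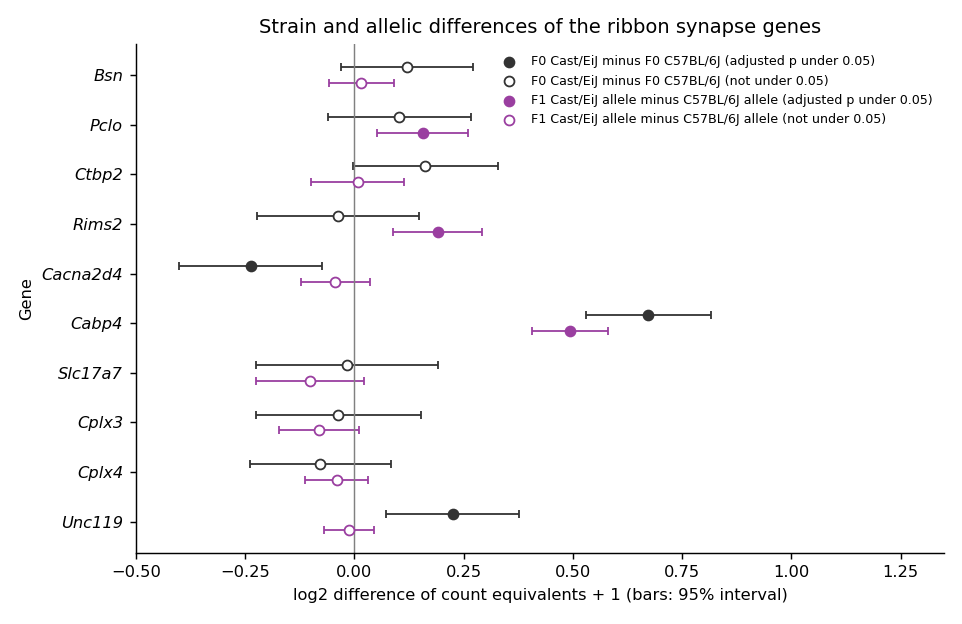
Log2 difference of each gene between the F0 strains and between the F1 alleles, with 95% intervals; filled points have an adjusted p under 0.05. Cabp4 is filled in both comparisons, at 0.67 and 0.49, Unc119 and Cacna2d4 are filled in F0 alone, and Rims2 and Pclo between alleles alone.

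Cabp4 was the gene of the set with the largest difference. The F0 C57BL/6J libraries had 2400, 2360 and 2500 count equivalents, and the F0 Cast/EiJ libraries had 4020, 3710 and 3850. In the F1 libraries the C57BL/6J allele ranged from 2200 to 2670 with a median of 2545, and the Cast/EiJ allele from 3370 to 3660 with a median of 3520. Neither the strains nor the alleles overlapped, and every value of Cast/EiJ origin lay above every value of C57BL/6J origin. The F0 difference was 1.59-fold (log2 0.67, SE 0.06, limma with Benjamini-Hochberg adjusted p = 6.87e-05). The allelic difference was 1.41-fold (log2 0.49, SE 0.04, limma adjusted p = 3.18e-08), and it was 1.40-fold in F1 B6xCast and 1.42-fold in F1 CastxB6. Unique hits gave the same direction in all 6 F1 libraries, with 7573 of 13097 allele-specific hits, 57.8%, from the Cast/EiJ allele (Wilson 95% interval 56.97% to 58.67%, counting error only). Over all genes of this comparison, that share lay between 49.5% and 49.6% in each F1 library.

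Unc119 differed between the strains and not detectably between the alleles. The F0 C57BL/6J libraries had 17300, 16600 and 16500 count equivalents and the F0 Cast/EiJ libraries 20300, 19300 and 19300. Both alleles in the F1 libraries lay between 17300 and 18200, with medians of 18000 for C57BL/6J and 17800 for Cast/EiJ. The strains did not overlap, whereas the alleles covered the same range, which met the highest F0 C57BL/6J library at its lower end and lay below every F0 Cast/EiJ library. The F0 difference was 1.17-fold (log2 0.22, SE 0.07, limma adjusted p = 0.0311). The allelic difference was 0.992-fold with a 95% interval of 0.954 to 1.03. The F0 call was lost with TMM factors on top of the authors' scaling (adjusted p = 0.0509), without the filter on low values (0.0701), on the log expression values (0.307), and when any F0 library other than C57BL/6J replicate 1 was left out, at adjusted p between 0.0708 and 0.104. With replicate number as a block the F0 difference had a limma adjusted p of 0.0056. Unique hits gave 48.6% from the Cast/EiJ allele (Wilson 95% interval 48.2% to 48.9%), with a range over libraries of 48.5% to 48.7%.

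Cacna2d4, the alpha-2-delta subunit of the photoreceptor calcium channel, was lower in Cast/EiJ. Its F0 C57BL/6J libraries had 6870, 7570 and 7150 count equivalents and its F0 Cast/EiJ libraries 5880, 6540 and 5910, with no overlap. The F1 C57BL/6J allele ranged from 6660 to 7540 with a median of 7040, and the F1 Cast/EiJ allele from 6540 to 7290 with a median of 6805. The alleles overlapped over most of their range, although the Cast/EiJ allele was the lower one in 5 of 6 libraries. The F0 difference was 0.849-fold (log2 -0.24, SE 0.07, limma adjusted p = 0.0327), and the allelic difference was 0.970-fold with a 95% interval of 0.918 to 1.02 (limma adjusted p = 0.359). The F0 call was lost without the filter on low values (adjusted p = 0.0502) and without C57BL/6J replicate 2 (0.125), C57BL/6J replicate 3 (0.0744), Cast/EiJ replicate 1 (0.0896) or Cast/EiJ replicate 3 (0.106). With replicate number as a block its limma adjusted p was 0.00399.

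Rims2, which encodes the active zone protein RIM2, differed between the alleles. The C57BL/6J allele had 2460, 2490 and 2440 count equivalents in F1 B6xCast and 2290, 2470 and 2760 in F1 CastxB6. The Cast/EiJ allele had 2690, 2760 and 2720 in F1 B6xCast and 2810, 2830 and 3210 in F1 CastxB6. The Cast/EiJ allele was the higher one in 6 of 6 libraries, although the allele ranges overlapped between libraries. The allelic difference was 1.14-fold (log2 0.19, SE 0.05, limma adjusted p = 0.00382), with 53.0% of 10697 allele-specific hits from Cast/EiJ (Wilson 95% interval 52.0% to 53.9%). It was larger on the log expression values, at a log2 difference of 0.30. The F0 strains overlapped, at 2940, 2820 and 2560 in C57BL/6J and 2530, 2940 and 2640 in Cast/EiJ, and their difference was 0.974-fold with a 95% interval of 0.857 to 1.11. MMSEQ's posterior SD for Rims2 reached 0.0589 natural-log units in the F1 libraries, the highest of the set beside the 0.0571 of Ctbp2.

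Pclo, the gene of the scaffold protein piccolo, also had more RNA from the Cast/EiJ allele. The C57BL/6J allele had 5270, 4520 and 4700 count equivalents in F1 B6xCast and 4630, 5100 and 4480 in F1 CastxB6. The Cast/EiJ allele had 5900, 4960 and 5320 in F1 B6xCast and 5230, 5580 and 4990 in F1 CastxB6. The Cast/EiJ allele was the higher one in 6 of 6 libraries, and the log2 ratio within a library stayed between 0.13 and 0.18. The allelic difference was 1.11-fold (log2 0.16, SE 0.05, limma adjusted p = 0.0143). Of 30712 allele-specific hits, 52.0% came from Cast/EiJ (Wilson 95% interval 51.4% to 52.6%). The call was lost on the log expression values (adjusted p = 0.136) and without F1 CastxB6 replicate 1 (adjusted p = 0.0515). The F0 strains overlapped, from 5150 to 5520 in C57BL/6J and from 5320 to 6020 in Cast/EiJ, and the difference was 1.07-fold with a 95% interval of 0.959 to 1.20.

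**Figure D3:**
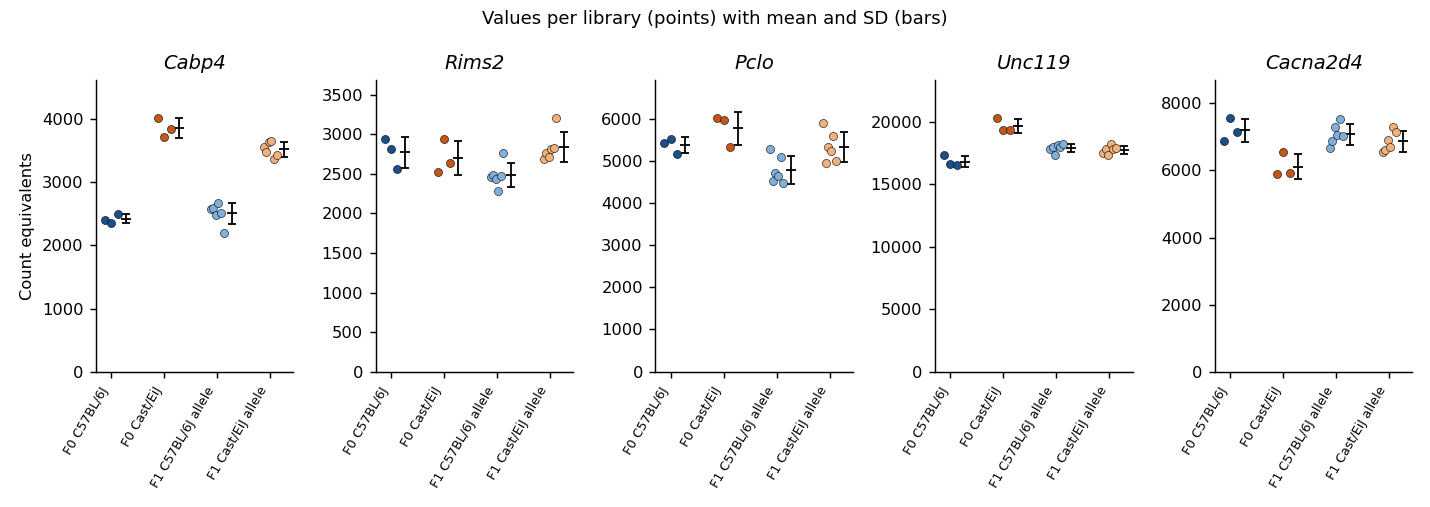
Count equivalents per library for the 5 genes called in the F0 or the allelic comparison, with the mean and SD beside the points and axes from 0. Cabp4 separates by origin of the allele in F0 and F1, and the F1 alleles of Unc119 lie together between 17300 and 18200.

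Among the scaffold genes, Bsn and Ctbp2 were called in neither comparison. Bsn had 3340, 3500 and 3340 count equivalents in F0 C57BL/6J and 3880, 3470 and 3720 in F0 Cast/EiJ, a difference of 1.09-fold with a 95% interval of 0.978 to 1.21. Its allelic difference was 1.01-fold with an interval of 0.960 to 1.07, although F1 CastxB6 replicate 2 went the other way at a log2 ratio of -0.11. Ctbp2 had 4490, 5180 and 4790 in F0 C57BL/6J and 5200, 5330 and 5630 in F0 Cast/EiJ. The Ctbp2 ranges did not overlap, but the difference of 1.12-fold missed the threshold (log2 0.16, SE 0.07, limma adjusted p = 0.119). It passed with replicate number as a block (limma adjusted p = 0.0401). The Ctbp2 alleles differed by 1.01-fold with an interval of 0.934 to 1.08, on 12266 allele-specific hits for the sum of RIBEYE and CtBP2.

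The vesicle genes of the set were also called in neither comparison. Slc17a7 ranged from 22600 to 26000 count equivalents in F0 C57BL/6J and from 21700 to 25600 in F0 Cast/EiJ, a difference of 0.989-fold with a 95% interval of 0.856 to 1.14. In the F1 libraries the Cast/EiJ allele of Slc17a7 was the lower one in 6 of 6 libraries, at log2 ratios from -0.15 to -0.07. The mean allelic difference was 0.932-fold with an interval of 0.855 to 1.01, which missed the threshold (limma adjusted p = 0.165). The fit takes 1 correlation for all genes, so this interval holds part of the spread that both alleles share between libraries. Within libraries the log2 ratio had an SD of 0.03 around a mean of -0.10. With the F1 library as a fixed effect the limma adjusted p was 0.0941. Slc17a7 had the most allele-specific hits of the set, 184299, of which 47.6% came from Cast/EiJ (Wilson 95% interval 47.4% to 47.8%).

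Complexins clamp and speed vesicle fusion, and Cplx3 and Cplx4 are the forms of the retina's ribbon synapses. Cplx3 ranged from 3570 to 4140 count equivalents in F0 C57BL/6J and from 3530 to 4000 in F0 Cast/EiJ, and Cplx4 from 6520 to 7410 and from 6390 to 6660. Both pairs of ranges overlapped. The F0 differences were 0.975-fold for Cplx3 (95% interval 0.856 to 1.11) and 0.947-fold for Cplx4 (95% interval 0.847 to 1.06). Between alleles, Cplx3 was at 0.946-fold (95% interval 0.888 to 1.01) and Cplx4 at 0.972-fold (95% interval 0.925 to 1.02). The Cast/EiJ allele was the lower one in 5 of 6 libraries for both genes, with equal values in the remaining Cplx3 library.

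**Figure D4:**
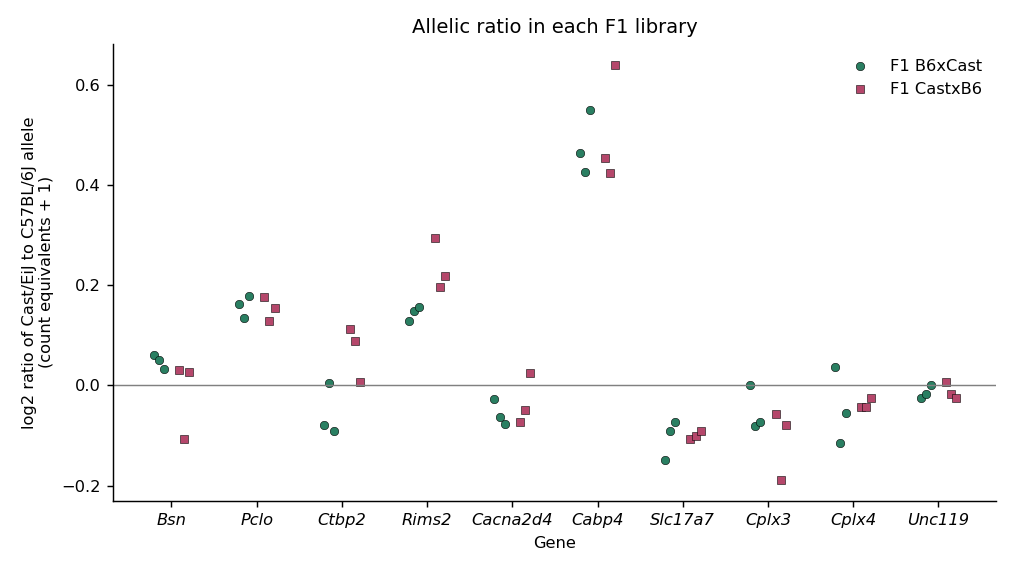
Log2 ratio, Cast/EiJ over C57BL/6J allele, in each of the 6 F1 libraries, by cross. Cabp4, Rims2 and Pclo lie above 0 in every library, Slc17a7 lies below 0 in every library, and Bsn has a single library at -0.11.

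The third comparison took the difference between the F0 strain difference and the F1 allelic difference in the same model. It asks whether the strains differ by more or less than their alleles do when both share a cell. Unc119 was the member called, with an F0 difference 1.18-fold above the allelic one (log2 0.24, SE 0.05, limma adjusted p = 0.00329). This 1 of 10 stands beside 14.0% of all genes called. The Unc119 call was lost on the log expression values, at a log2 value of 0.18 and an adjusted p of 0.183, or 0.171 once weighted by the posterior SD. Cacna2d4 missed the threshold at a log2 value of -0.19 (SE 0.07, limma adjusted p = 0.0702), and so did Rims2 at -0.23 (SE 0.09, limma adjusted p = 0.0984). Both passed it when F0 Cast/EiJ replicate 2 was left out, at adjusted p = 0.0296 for Cacna2d4 and 0.0477 for Rims2, and in edgeR on the unique hits, at 0.0202 and 0.0238. Cacna2d4 also passed with the replicate block (adjusted p = 0.03) and on log expression weighted by the posterior SD (0.0269), where it was the only member called. Cabp4 differed by 0.18 on the log2 scale (SE 0.07, limma adjusted p = 0.121), and passed when F1 CastxB6 replicate 3 was left out (adjusted p = 0.0497). The F0 libraries were sequenced on 1 lane and the F1 libraries on 2, so the number of lanes and the generation cannot be told apart in this comparison.

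The last comparison used the reciprocal crosses to set the maternal against the paternal allele. None of the 10 genes was called by limma, and 0 of the 10 had an unadjusted p under 0.05 by limma, by edgeR or by DESeq2. The log2 differences lay between -0.06 for Ctbp2 and 0.03 for Bsn, and the smallest unadjusted limma p was 0.232. Over all genes, 0.492% were called. The widest 95% intervals of the set, those of Slc17a7 and Ctbp2, ran from 0.917-fold to 1.09-fold and from 0.889-fold to 1.03-fold.

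Marker genes of several cell types differed between the strains, and their part in the F0 differences was not tested. Beside the counts of called markers given here, 17.2% of all genes were called higher and 16.6% lower in F0. The summed level of 5 rod genes was 7981 to 8258 FPKM in F0 C57BL/6J and 9353 to 10170 FPKM in F0 Cast/EiJ, and 2 of the 5 (Sag and Nr2e3) were called higher and none lower. Between the F1 alleles 1 of the 5, Sag, was called, also higher from Cast/EiJ, beside 47.0% of all genes called. The summed level of 6 ganglion cell genes was 246.5 to 274.1 FPKM in C57BL/6J and 163.6 to 179.1 FPKM in Cast/EiJ, with 4 of the 6 called lower. Pigment epithelium genes summed to 8.87 to 10.9 FPKM in C57BL/6J and to 2.59 to 3.79 FPKM in Cast/EiJ, with 2 of 4 tested genes called lower. The horizontal cell genes did not overlap either, at 14.8 to 18.8 against 12.7 to 14.5 FPKM, with 1 of 3 called lower. Summed levels of cone, bipolar, amacrine, Mueller glia, lens and blood genes overlapped between the strains.

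A wider list of 60 synapse genes puts the set in its pathway, with 2 X-linked genes of it, Cacna1f and Syp, left out of the tests. Of 58 tested between the F0 strains, 9 were called higher and 12 lower in Cast/EiJ, 36.2% in all beside 33.8% of all genes. Of 57 tested between the alleles, 13 were called higher and 13 lower, 45.6% beside 47.0% of all genes. The F0 and allelic differences differed for 15 of 57, 26.3% beside 14.0% of all genes, and none was called between maternal and paternal alleles. The median absolute difference of the list was 0.16 between the strains and 0.12 between the alleles.

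Of 14 other ribbon and active zone genes tested in F0, 4 were called lower (Rims1, Unc13b, Ppfia2 and Kif3a) and none higher, beside 16.6% of all genes called lower. The median log2 difference of the 14 was 0.09. Rims1, which encodes RIM1, the relative of RIM2, went from 1120 ± 52.0 to 827.0 ± 47.9 count equivalents (SD, n = 3 each), a log2 difference of -0.44. Its alleles differed by -0.35 (limma adjusted p = 1.13e-05), the opposite direction to Rims2. Unc13b, a vesicle priming factor, was at -0.40 in F0 and -0.22 between alleles, and the kinesin gene Kif3a at -0.40 in F0. Between alleles 2 of 13 were called higher (Erc2 and Ppfia4) and 3 lower (Rims1, Unc13b and Kif3a), beside 23.5% of all genes each way. Erc2, a scaffold protein that binds RIM, was at 0.29.

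Of 8 other calcium channel genes tested in F0, 4 were called higher (Cacna1d, Cacna2d1, Cacna2d2 and Cabp5), beside 17.2% of all genes, and 1 lower, Cacna2d3 at -0.49. Their median log2 difference was 0.25. Cabp5, a calcium sensor of the same family as Cabp4 that is found in bipolar cells, had 1040 ± 56.2 count equivalents in F0 C57BL/6J and 2630 ± 115.3 in F0 Cast/EiJ (SD, n = 3 each). Its alleles had 1087 ± 45.9 and 2982 ± 51.2 (SD, n = 6 each), a log2 difference of 1.46 (limma adjusted p = 8.36e-15). Cacna2d1, another alpha-2-delta subunit, was at 0.63 in F0 and 0.40 between alleles, opposite in sign to the F0 difference of Cacna2d4. Between alleles 3 of 8 were called higher (Cacna1d, Cacna2d1 and Cabp5) and none lower, beside 23.5% of all genes each way.

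Vesicle fusion and vesicle genes moved in both directions. Of 12 fusion genes, 3 were called lower in F0 (Syt2 at -0.82, Vamp1 at -0.75 and Snap25 at -0.48) and 1 higher (Napa). Over all genes 16.6% were called lower and 17.2% higher. Between alleles Cplx2, a complexin of conventional synapses, was at 0.37, Syt1 at 0.19 and Stx3, the syntaxin of ribbon synapses, at -0.21, and Snap25 was called lower too. Of 7 vesicle genes, Slc17a8, a vesicular glutamate transporter like Slc17a7, was called lower in F0 at -0.78 and between alleles at -0.96. Rph3a was called lower in F0 at -0.32 and higher between alleles, Synpr was called higher in F0 at 0.24, and Slc17a6 higher between alleles at 0.21.

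Rab3a, a small GTPase of synaptic vesicles, was called lower from the Cast/EiJ allele at a log2 difference of -2.04 (SE 0.42, limma adjusted p = 0.000706). Its F1 Cast/EiJ values ranged from 244.0 to 6190 count equivalents and its C57BL/6J values from 1320 to 6940, on 59 unique hits from the Cast/EiJ and 793 from the C57BL/6J allele, summed over the 6 libraries. The F0 strains, from 3330 to 3770 and from 3570 to 3950, did not show such a spread.

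Genes of vesicle retrieval and of adhesion across the synapse were called as follows. In F0, Synj1, a phosphatase that uncoats vesicles, was at 0.19 and Sh3gl2 at -0.24, out of 6 tested. Between alleles Dnm1, Synj1 and Cltb were at 0.19, 0.15 and 0.13, and Sh3gl2 was called lower. Unique hits of Dnm1 leaned the other way, with 414 from the Cast/EiJ and 465 from the C57BL/6J allele, summed over the F1 libraries. Of 6 adhesion genes, Lrit1 was at 0.40 in F0 and 0.27 between alleles, and Nrxn3 at -0.27 and -0.20. Elfn1 was at 0.25 in F0, and Elfn2 at -0.21 between alleles, where Egflam and Dag1 were called lower too.

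None of 5 genes for Unc119's cargoes and release factors was called in F0, beside 33.8% of all genes. Between alleles 1 of the 5 was called, beside 47.0% of all genes. Arl3, the GTPase that releases cargo from UNC119, was called lower from the Cast/EiJ allele, at 1942 ± 174.7 against 3112 ± 217.3 count equivalents (SD, n = 6 each), a log2 difference of -0.68 (limma adjusted p = 4.73e-07). In F0 its ranges overlapped, from 2280 to 2740 in C57BL/6J and from 1910 to 2460 in Cast/EiJ. The strains thus differed less than the alleles. The signed F0 difference minus the allelic one was 0.51 on the log2 scale (limma adjusted p = 0.0136). Arl3 and Unc119 were both called in the third comparison, with the alleles apart for Arl3 and the strains apart for Unc119.

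**Figure D5:**
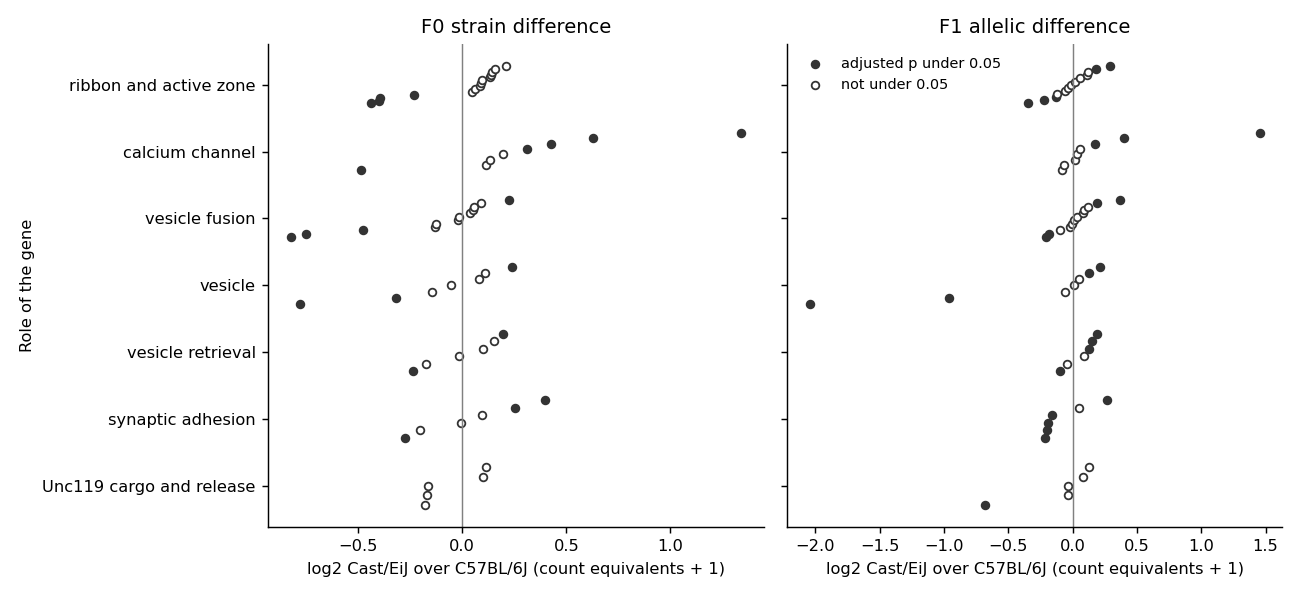
Log2 difference of the wider list of synapse genes between the F0 strains (left) and between the F1 alleles (right), by role; filled points have an adjusted p under 0.05. The ribbon and active zone genes called in F0 lie below 0, and the lowest point on the right is Rab3a at -2.04.

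The genes most like the members with the smallest allelic p were found by Pearson's r of log2(count equivalents + 1) over the 18 columns, 6 of F0 libraries and 12 of F1 alleles, which share strains and libraries. For Cabp4 these were Tex2 (r = 0.973) and Scg2 (r = 0.972), for Pclo Rreb1 (r = 0.918) and Gnb3 (r = 0.893), and for Rims2 Cep250 (r = 0.768) and Rgs12 (r = 0.760). The choice by correlation over these columns largely fixes the allelic direction of the 6 genes, so it is not given as a result. None lies on the chromosome of the gene it resembles.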

How the data were processed

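RNA-seq of pooled retinas gave 12 libraries in 4 groups of 3, with read pairs of 101 bases. The authors trimmed reads with Trim Galore 0.2.6, aligned them with Bowtie 0.12.9 to transcriptomes of each strain, or of both for the F1 libraries, on NCBI37, and ran MMSEQ. The authors deposited count equivalents (the signal, scaled to a common library size, with 3 significant digits and 1 column per F1 allele), the natural log of expression, its posterior SD, and unique hits, a count that is not normalized. A table of the authors' own model comparison (posterior probabilities, an imprinting Bayes factor and effect estimates per gene) served only to mark polymorphic genes, and its 36 columns of per-sample values were not used.

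The count equivalents were tested with limma 3.58.1 on log2(value + 1) with a mean trend. F0 strains were compared over 6 libraries. The other contrasts came from 1 model over 18 columns blocked by F1 library (consensus correlation 0.1354). Benjamini-Hochberg adjustment ran over all genes tested, and a call is an adjusted p under 0.05. Intervals are 95% intervals, Wilson for shares. The scripts were tested on simulated data. Alternatives used edgeR 4.0.16 and DESeq2 1.42.0 on unique hits, log expression, TMM factors, other filters and pseudocounts, a replicate block and libraries left out. The F1 library as a fixed effect was added after seeing the data.

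The genes and lists were chosen with earlier results of these data known, so no count over them is independent evidence. All 10 genes are named in every comparison. Of the wider list, up to 3 genes per role with the largest differences among those called are given with values, and the genes behind small counts are named. Genes of the synapse and rod marker lists that are not reported here were left out of their counts and sums. The study's methods call each library a biological replicate made from a pool of 6 to 8 retinas, so p-values measure the spread between pools. Between 8158534 and 12363291 unique hits per library set the counting error.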

Additional observations from a re-analysis of the deposited data

Results flagged for a closer look

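A library lay far from the others for Bsn: in F1 CastxB6 replicate 2 the log2 ratio of Cast/EiJ over C57BL/6J allele was -0.11, while the other 5 libraries lay between 0.03 and 0.06. The gap exceeded the critical value of Dixon's test for 6 samples, and chance flags about 1 in 20 such groups, with 10 genes tested here. Unc119 had different effects in the 2 generations: its F0 strain difference exceeded its F1 allelic difference by 0.24 on the log2 scale (limma adjusted p = 0.00329), a test of the difference itself.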

How the results depend on the processing

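Cabp4 kept its direction and its call under every alternative in the F0 and the allelic comparison, and Rims2 did so between alleles. In F0, 3 of 10 genes were called, 1 without the filter on low values, and between 1 and 3 when a library was left out. Between alleles 3 of 10 were called, and 2 or 3 when a library was left out. In the third comparison 1 of 10 was called, 0 on log expression without weights, 3 by edgeR on unique hits, 2 with the replicate block, and between 1 and 3 when a library was left out. The maternal-paternal count was 0 under all 23 alternatives. Where a lost call has no value of its own to show why, the cause was not tested.

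Signs turned only for values that were not called. On log expression, without and with weights, Rims2 went to 0.0839 and 0.0846 in F0, Bsn to -0.0542 and -0.0551 between alleles, and Unc119 to 0.0178 and 0.0188 between alleles. On unique hits the Ctbp2 alleles went to -0.0181 by edgeR and -0.022 by DESeq2. With a library left out, Rims2 in F0 ranged from -0.0993 to 0.009, Slc17a7 from -0.078 to 0.0476 and Cplx3 from -0.1051 to 0.0227. Ctbp2 between alleles then ranged from -0.0079 to 0.0229, and in the third comparison Pclo ranged from -0.0849 to 0.0042, Cplx3 from -0.0252 to 0.1026 and Cplx4 from -0.072 to 0.0203.

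Same-numbered libraries deviated together only in part, with correlations from 0.06 to 0.28 between the F0 strains and from -0.09 to -0.002 between the F1 crosses. They ran from 0.05 to 0.42 between F0 C57BL/6J and F1 B6xCast and from 0.02 to 0.33 between F0 Cast/EiJ and F1 B6xCast. Libraries with other numbers gave -0.33 to 0.25 and -0.29 to 0.16 in these comparisons, and -0.25 to 0.10 between the F0 strains. Same-numbered correlations ran from -0.09 to 0.06 between the F0 strains and F1 CastxB6, so the numbers were not taken to pair the samples. With the replicate block, 4 of 10 genes were called in F0, Ctbp2 among them at an adjusted p of 0.0401, and 3 of 10 between alleles. The F0 calls over all genes then rose from 4887 to 6376. Maternal-paternal calls over all genes fell from 66 to 31 on weighted log expression, 40 by edgeR and 39 by DESeq2. The count equivalents carry 3 digits and no per-read depth, and Rims2 and Ctbp2, with the fewest allele-specific hits over the F1 libraries, carry the widest counting error.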
